A study of Mus musculus with 4 samples.

Results

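The genes described here encode the protein part of the splicing machinery. They are the SR proteins (Srsf followed by a number), the heterogeneous nuclear ribonucleoproteins (hnRNP proteins, Hnrnp), the SF3A and SF3B subunits (Sf3a, Sf3b) and the proteins of the small nuclear ribonucleoproteins (snRNPs, Snrp). Members were chosen by gene symbol, and 51 of the 13085 measured genes had such a symbol. They comprised 10 SR genes, 20 hnRNP genes, 2 genes of the U1 snRNP, 11 of the U2 snRNP and 8 of the Sm core, and each of the 51 was at 1 FPKM or more in every sample. FPKM counts sequenced fragments scaled for transcript length and sequencing depth, so levels of different genes can be compared per length.

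The data came from 4 stable lines of 3T3-L1, a mouse preadipocyte line that can be turned into fat cells in culture. The lines carried an empty FLAG vector (FLAG), FLAG-tagged CACUL1 (FLAG-CACUL1), a hairpin against luciferase (sh-Luc) or a hairpin against CACUL1 (sh-CACUL1). All lines received insulin at 5 µg/ml, dexamethasone at 1 µg/ml, IBMX at 0.5 mM and rosiglitazone at 5 µM, then insulin every 2 days, and were collected on day 8. FLAG vectors were selected with G418 and hairpin vectors with hygromycin B, and lines were grown from resistant colonies. There was 1 sample per line, so no value below has a replicate error, no test was made, and an effect of CACUL1 cannot be told apart from a difference between lines. The purpose of the profiling was to learn what more or less CACUL1, a protein that holds back the fat cell regulator PPARγ, does to gene expression in adipogenesis.

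In splicing, the U1 snRNP recognises the start of an intron and the U2 snRNP, with its SF3A and SF3B subunits, binds the branch point near the intron's end. The Sm proteins form a ring that the spliceosomal snRNAs share. SR proteins mostly bind exons and favour their inclusion, whereas many hnRNP proteins favour skipping, and the balance between them sets which exons a cell keeps. Choice of isoform is known to matter in fat cells, for example for PPARγ and the insulin receptor.

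Depth and the state of the cells differed between samples. From the spacing of low values, FLAG, FLAG-CACUL1 and sh-CACUL1 were estimated to hold 14500000, 14300000 and 15100000 fragments and sh-Luc 24200000. At these depths every member rested on at least 93 estimated fragments, and counting alone gives a standard error of at most 0.182 on the log2 scale for a change. Cacul1 was at 9.61 FPKM in FLAG, 11.8 FPKM in FLAG-CACUL1, 10.2 FPKM in sh-Luc and 5.39 FPKM in sh-CACUL1. Its level was thus lowest with its hairpin, and FLAG-CACUL1 was 0.27 above FLAG on the log2 scale. The labels call the cells preadipocytes, but 9 measured adipocyte markers summed to 8437.8 FPKM in FLAG, 883.4 FPKM in FLAG-CACUL1, 1687.9 FPKM in sh-Luc and 17625.9 FPKM in sh-CACUL1. All 9 were lower by 2-fold or more in FLAG-CACUL1 and higher by 2-fold or more in sh-CACUL1, so each comparison below also set cells with few against cells with many adipocyte transcripts. The 9 preadipocyte or fibroblast markers measured summed to 5969.1, 8514.4, 4614.4 and 813.2 FPKM in the same order, carried by the matrix genes Col1a1, Col3a1 and Fn1. In sh-CACUL1 6 of the 9 were 2-fold or more lower, while Dlk1 and Thy1 were higher, at 21.2 and 34.3 FPKM against 0.22 and 0.663 FPKM in sh-Luc. The 6 markers of dividing cells summed to 92.8, 76.0, 147.9 and 68.5 FPKM, and sh-CACUL1 had 4 of them lower by 2-fold or more. The 3 measured macrophage markers summed to at most 68.3 FPKM, in FLAG-CACUL1, where Lyz2 gave 66.5 FPKM and Csf1r 0.397 FPKM. The part of these differences in the results was not tested, and in bulk RNA fewer cells of a type and less RNA per cell cannot be told apart.

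The 51 genes together took 0.47% of all FPKM in FLAG and 0.625% in FLAG-CACUL1, and the hairpin lines gave 0.815% with sh-Luc and 0.727% with sh-CACUL1. Their median level was 29.7, 45.6, 46.9 and 34.7 FPKM in this order of lines, which is kept below. FLAG was therefore the sample with the least splicing factor mRNA by both measures. Of the 51 genes, 25 (49.0%) were lowest in FLAG and 21 (41.2%) in sh-CACUL1, against 30.4% and 41.6% of all genes. The highest level was in sh-Luc for 24 genes (47.1%, against 37.1% of all genes) and in FLAG-CACUL1 for 14 (27.5%, against 21.8%).

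**Figure D1:**
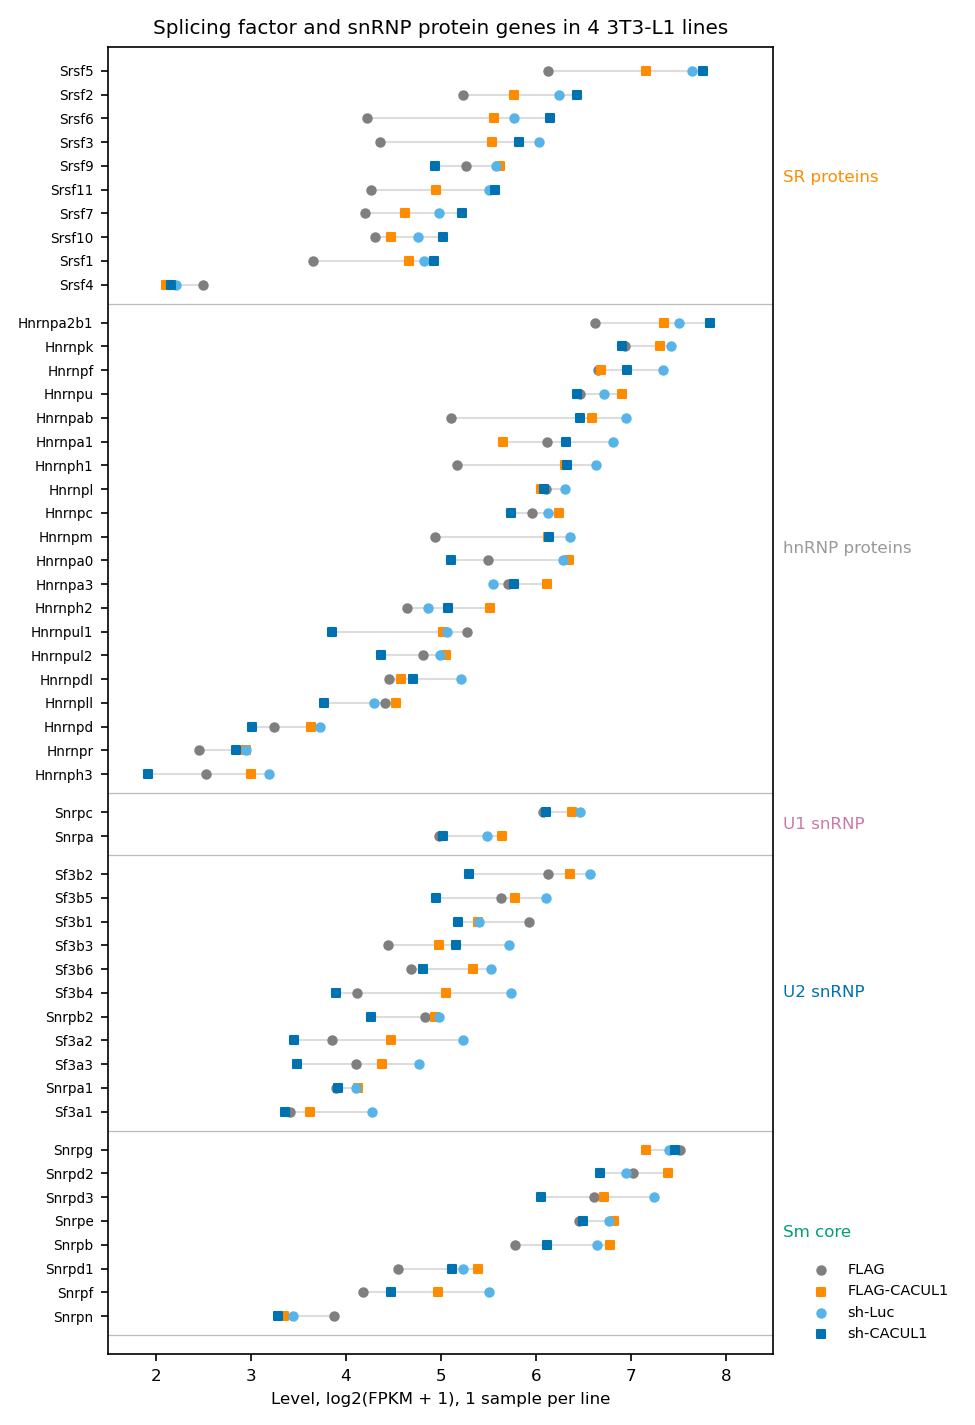
Level of each of the 51 genes in the 4 lines, as log2(FPKM + 1) on the horizontal axis, with genes ordered by mean FPKM within their class and 1 point per sample. The grey FLAG point lies farthest left for 8 of the 10 SR genes, and the dark blue sh-CACUL1 point lies farthest left for 8 of the 11 U2 snRNP genes.

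FLAG-CACUL1 was compared with FLAG to see how splicing genes stood in the line carrying added CACUL1. The study followed the tagged protein by western blot. In these values Cacul1 was only 0.27 above FLAG on the log2 scale, so the addition was hardly visible. The genes past a 2-fold difference were 4 of the SR proteins and 3 hnRNP proteins, all higher in FLAG-CACUL1. At a 2-fold cut-off on FPKM + 1, 7 of the 51 genes (13.7%) were higher and 0 were lower. Among all genes 7.51% were higher and 7.22% lower by this cut-off, and among the 9563 genes at 1 FPKM or more in every sample 7.98% and 7.25%. The 7 were Srsf1, Srsf3, Srsf5, Srsf6, Hnrnpab, Hnrnph1 and Hnrnpm. Without a cut-off, 44 of the 51 genes (86.3%) were higher, against 58.7% of all genes. The members' median log2 change was 0.39 and that of all genes 0.09, a difference of 0.30.

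Srsf6, an SR protein, had the largest log2 change of its class. It was at 17.7 FPKM in FLAG, 46.1 FPKM in FLAG-CACUL1, 53.7 FPKM in sh-Luc and 70.1 FPKM in sh-CACUL1, and was 2.61-fold higher in FLAG-CACUL1 than in FLAG. FLAG stood alone at the low end, and the other lines lay closer together. Srsf3, a small SR protein that also takes part in mRNA export, followed with 19.5, 45.6, 64.5 and 55.8 FPKM in the same order. Srsf1, the classic splicing activator first known as ASF/SF2, had 11.6, 24.3, 27.3 and 29.4 FPKM. Srsf5, the most abundant SR mRNA here, had 68.9, 142.2, 198.4 and 216.3 FPKM. In all 3 genes FLAG was again the lowest sample, and FLAG-CACUL1 lay below sh-Luc. On the log2(FPKM + 1) scale the changes from FLAG to FLAG-CACUL1 were 1.18 for Srsf3, 1.01 for Srsf1 and 1.04 for Srsf5. Of the 31-base words in the transcripts of Srsf3 and Srsf5, 37.6% and 36.0% also occur in other annotated genes. For Srsf1 and Srsf6 this was 0%. The levels of Srsf3 and Srsf5 can thus depend on how such reads were assigned.

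The other SR genes changed less. Srsf2, which regulates the splicing of its own mRNA, was at 36.5 FPKM in FLAG and 53.4 FPKM in FLAG-CACUL1. Srsf11, Srsf7, Srsf9 and Srsf10 had log2 changes of 0.69, 0.42, 0.35 and 0.17. Srsf4 was the only SR gene that was lower, at 4.65 FPKM in FLAG and 3.32 FPKM in FLAG-CACUL1, and was also the least abundant of the class. The class median change was 0.61, which is 0.52 above the median of all genes.

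Among the hnRNP genes, Hnrnpab stood out. Its product, also called CBF-A, binds single-stranded DNA and RNA. Hnrnpab was at 33.4 FPKM in FLAG, 95.7 FPKM in FLAG-CACUL1, 122.8 FPKM in sh-Luc and 87.0 FPKM in sh-CACUL1. The 2.86-fold difference between FLAG-CACUL1 and FLAG placed it at percentile 97.5 of all genes. Hnrnpm was at 29.7, 68.9, 81.3 and 69.5 FPKM and Hnrnph1, which binds G-rich elements, at 35.1, 78.2, 98.4 and 79.2 FPKM. For these 3 genes FLAG lay below each of the other 3 lines by 2-fold or more. Of the 31-base words of Hnrnpm, 29.2% also occur in transcripts of March2, against 2.52% shared for Hnrnpab and 3.3% for Hnrnph1. The hnRNP class had a median change of 0.40, with 17 of 20 genes higher. The 3 lower genes were Hnrnpa1, Hnrnpul1 and Hnrnpl, with log2 changes of -0.46, -0.26 and -0.05.

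No snRNP gene passed the 2-fold cut-off in FLAG-CACUL1. The nearest was Snrpb, which encodes the Sm protein B, at 54.1 FPKM in FLAG and 108.7 FPKM in FLAG-CACUL1, a log2 change of 0.99 that became 1.01, past the cut-off, with a pseudocount of 0.1 or none. Sf3b4, an SF3B subunit that contacts the pre-mRNA near the branch point, was at 16.4 and 32.3 FPKM, a change of 0.94. Both U1 genes were higher, Snrpa by 0.66 and Snrpc by 0.31. The U2 class had the smallest median change, 0.24, and Sf3b1, which encodes its largest protein, was lower, at 59.7 FPKM in FLAG and 41.0 FPKM in FLAG-CACUL1.

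These directions rested on the FLAG sample. Against sh-Luc in place of FLAG, the 7 genes had log2 changes between -0.49 and -0.16 in FLAG-CACUL1, the reverse direction, and the members' median relative to all genes was -0.09. Under median-of-ratios scaling, which sets the typical gene equal between samples, Hnrnpab, Hnrnpm, Srsf3 and Srsf6 were the 4 genes past the cut-off, where 5.77% of all genes were higher and 8.93% lower.

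Cells with less CACUL1 were described by comparing sh-CACUL1 with sh-Luc. Here the U2 snRNP genes were the class with the lowest median change, and no SR gene passed the cut-off. By the 2-fold cut-off 10 of the 51 genes (19.6%) were lower in sh-CACUL1 and 0 were higher. Of all genes 16.4% were lower and 4.94% higher, and of those at 1 FPKM or more in every sample 18.5% and 4.57%, so the count of members stood near the background. The members' median change was -0.37 and that of all genes -0.30, and the sign of the remaining -0.07 turned with the pseudocount, the filter and the scaling. The set as a whole thus moved with the typical gene, and the classes within it parted.

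The U2 class had 5 of its 11 genes past the cut-off, namely Sf3a2, Sf3a3, Sf3b2, Sf3b4 and Sf3b5, and all 11 were lower. Sf3b4 was at 52.2 FPKM in sh-Luc and 13.9 FPKM in sh-CACUL1, with 16.4 FPKM in FLAG and 32.3 FPKM in FLAG-CACUL1. Sf3a2, a zinc finger subunit of SF3A, was at 36.6 FPKM in sh-Luc and 9.93 FPKM in sh-CACUL1, with 13.5 FPKM in FLAG and 21.3 FPKM in FLAG-CACUL1. The fold differences were 3.75 for Sf3b4 and 3.68 for Sf3a2, the largest among the 51 genes. In both genes sh-CACUL1 was lowest and FLAG next, while sh-Luc was highest. Of the 31-base words in the transcripts of Sf3b4, 55.0% also occur in another annotated gene, the processed pseudogene Gm7935, so its level depends on how such reads were assigned.

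Sf3a3, Sf3b2 and Sf3b5 had smaller and similar differences. Sf3b2, the most abundant U2 gene by mean level, was at 68.9 FPKM in FLAG, 80.8 FPKM in FLAG-CACUL1, 94.2 FPKM in sh-Luc and 38.3 FPKM in sh-CACUL1. Sf3a3 was at 16.3, 19.8, 26.3 and 10.2 FPKM, and Sf3b5, a small SF3B subunit, at 48.8, 53.8, 68.0 and 29.8 FPKM. In each of the 3 genes sh-CACUL1 lay below all other lines. Sf3a1, the largest SF3A subunit, was just under the cut-off, with a log2 change of -0.92, and Sf3b6, which lies at the branch point, had -0.72. Snrpb2 (U2-B″) and Snrpa1 (U2-A′), which bind a loop of the U2 snRNA, had -0.71 and -0.19. Sf3b1, the scaffold of SF3B and a target of splicing inhibitors, changed by -0.23, from 41.3 FPKM in sh-Luc to 35.2 FPKM in sh-CACUL1. Subunits of the same complex therefore did not share 1 fold. The summed level of the U2 class was 480.7 FPKM in sh-Luc and 240.9 FPKM in sh-CACUL1.

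Of the Sm genes, Snrpd3 and Snrpf passed the cut-off. Snrpd3 was at 96.5 FPKM in FLAG, 104.1 FPKM in FLAG-CACUL1, 150.2 FPKM in sh-Luc and 65.5 FPKM in sh-CACUL1. Snrpf was at 17.2, 30.4, 44.4 and 21.2 FPKM, so that its lowest sample was FLAG. Against FLAG, Snrpf was 0.29 higher in sh-CACUL1 on the log2 scale. The other 6 Sm genes lay between a change of -0.52 for Snrpb and 0.06 for Snrpg, although the 7 proteins of the ring are present once each. Snrpg was the most abundant member by mean level, at 182.5, 142.2, 168.0 and 175.5 FPKM.

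The hnRNP genes past the cut-off were Hnrnpa0, Hnrnph3 and Hnrnpul1. Hnrnpa0, which binds AU-rich elements of cytokine mRNAs, was at 44.2 FPKM in FLAG, 80.7 FPKM in FLAG-CACUL1, 77.2 FPKM in sh-Luc and 33.5 FPKM in sh-CACUL1. Hnrnpul1 was at 37.8, 31.4, 32.4 and 13.5 FPKM, and was lower in sh-CACUL1 than in any other line. Hnrnph3 was at 4.78, 7.02, 8.12 and 2.77 FPKM, the lowest level of any member. Of the 20 hnRNP genes, 17 were lower, where 68.7% of all genes and 78.4% of the members were, and the class median was -0.44, which is 0.14 below that of all genes. Hnrnpa2b1 went the other way, with 180.2 FPKM in sh-Luc and 227.3 FPKM in sh-CACUL1, and had the highest level of any member in a sample.

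In the SR class 7 of 10 genes had more mRNA in sh-CACUL1 than with the control hairpin, by less than 2-fold. Their median change was 0.11, which is 0.42 above the median of all genes. Srsf6 had the highest change, 0.38. Srsf9, at 46.9 FPKM in sh-Luc and 29.7 FPKM in sh-CACUL1, had the lowest, -0.64, and changed most of the class in size. The same 7 genes, Srsf1, Srsf2, Srsf5, Srsf6, Srsf7, Srsf10 and Srsf11, had their highest level of all lines in sh-CACUL1.

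**Figure D2:**
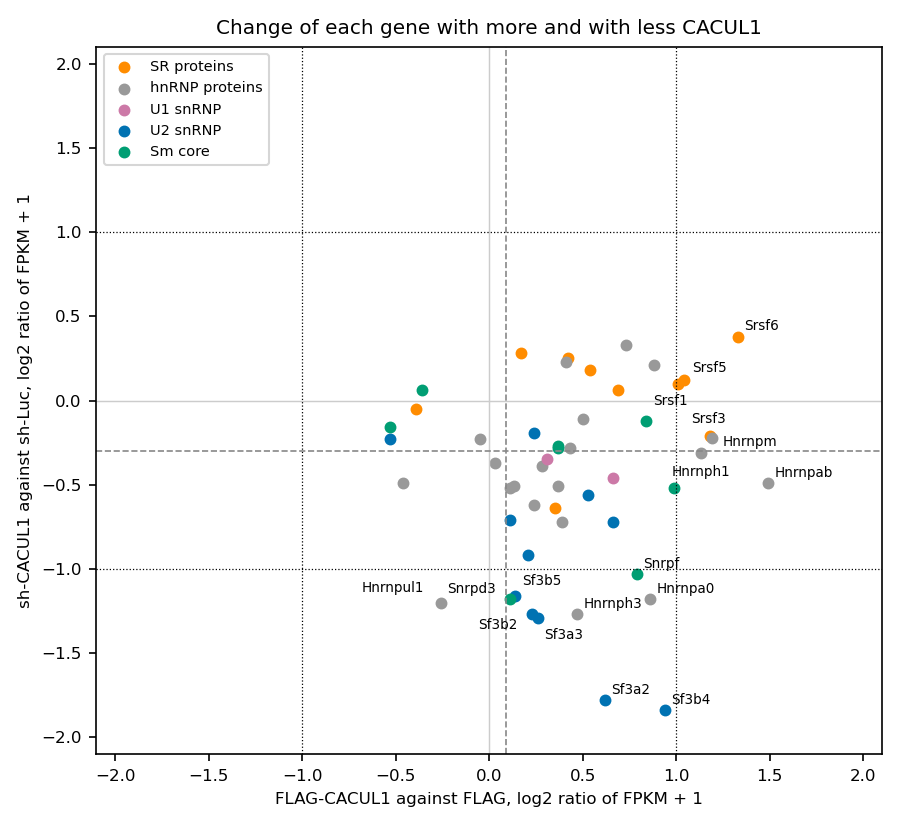
Change of each of the 51 genes as a log2 ratio of FPKM + 1, in FLAG-CACUL1 against FLAG on the horizontal axis and in sh-CACUL1 against sh-Luc on the vertical axis, with 1 point per gene coloured by class. Dotted lines mark the 2-fold cut-off and dashed lines the median of all genes, 0.09 and -0.30. The genes past the cut-off on the right are SR and hnRNP genes, the 10 past it at the bottom are 5 U2 snRNP, 3 hnRNP and 2 Sm genes, and no gene is past both.

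The values as deposited were lower for most genes in sh-CACUL1. Scaling by the median of ratios moved the median of all genes from -0.30 to 0.01 and left 2 members past the cut-off, Sf3a2 and Sf3b4. Quantile normalization left 4, which were these and Sf3b2 and Snrpd3. With median-of-ratios scaling the split of called genes among all genes went from 4.94% higher and 16.4% lower to 9.41% higher and 7.45% lower, and that of members without a cut-off from 11 higher and 40 lower to 28 higher and 23 lower. SR stayed the highest and U2 the lowest class under each scaling. Relative to all genes, the SR median in sh-CACUL1 was 0.42 as deposited, 0.42 after quantile normalization and 0.57 after median-of-ratios scaling, and the U2 median was -0.62, -0.48 and -0.49. With FLAG in place of sh-Luc as the control, these medians were 1.30 for SR and -0.34 for U2. Against FLAG only Hnrnpul1 of the 10 genes was past the cut-off, with a log2 change of -1.42. It was also the only one of the 51 members lower by 2-fold or more, where 15.4% of all genes were lower. Sf3b4 was at -0.22, Sf3a2 at -0.41 and Sf3b2 at -0.83. In the other direction 11 members were 2-fold or more above FLAG, of which 7 were SR genes, where 7.45% of all genes were higher.

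**Figure D3:**
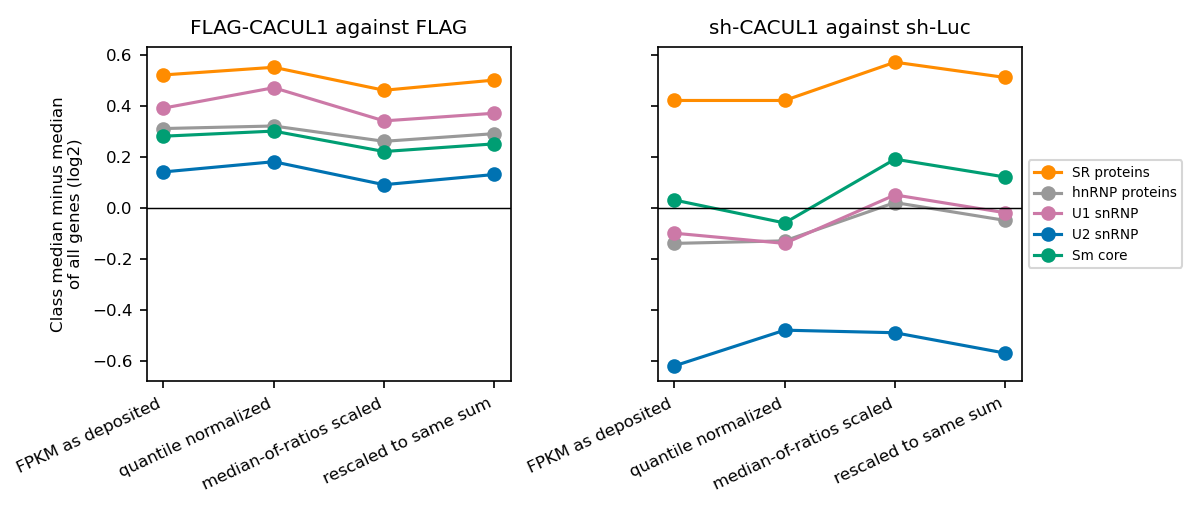
Median log2 change of each class minus the median of all genes, for FLAG-CACUL1 against FLAG (left) and sh-CACUL1 against sh-Luc (right), with the FPKM as deposited and under 3 scalings along the horizontal axis. On the right the SR line stays between 0.42 and 0.57 and the U2 line between -0.62 and -0.48, while the other classes lie near 0 and change sign. On the left all classes lie above 0 with SR highest and U2 lowest.

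Ratios between classes within a sample do not depend on a single scaling factor for that sample, though quantile normalization would change them, and are given from the FPKM as deposited. SR genes made up 11.3%, 14.8%, 16.8% and 22.3% of the members' summed FPKM, from FLAG to sh-CACUL1. The U2 genes made up 14.4%, 12.7%, 14.2% and 8.91%. The SR sum was thus 0.783 times the U2 sum in FLAG, 1.16 times in FLAG-CACUL1, and 1.19 and 2.51 times in the lines with sh-Luc and sh-CACUL1. FLAG-CACUL1 and sh-Luc were nearly equal in this ratio, FLAG lay lower and sh-CACUL1 higher. The ratio was higher in both manipulated lines than in their own controls, by 0.57 in FLAG-CACUL1 and by 1.08 in sh-CACUL1 on the log2 scale. The 2 controls differed by 0.60, with FLAG lower, so the first value was no larger than the distance between lines without a change in CACUL1. The hnRNP share stayed between 42.7% and 44.2% in all 4 samples, and the Sm share was 27.2%, 24.2%, 21.8% and 20.8%.

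**Figure D4:**
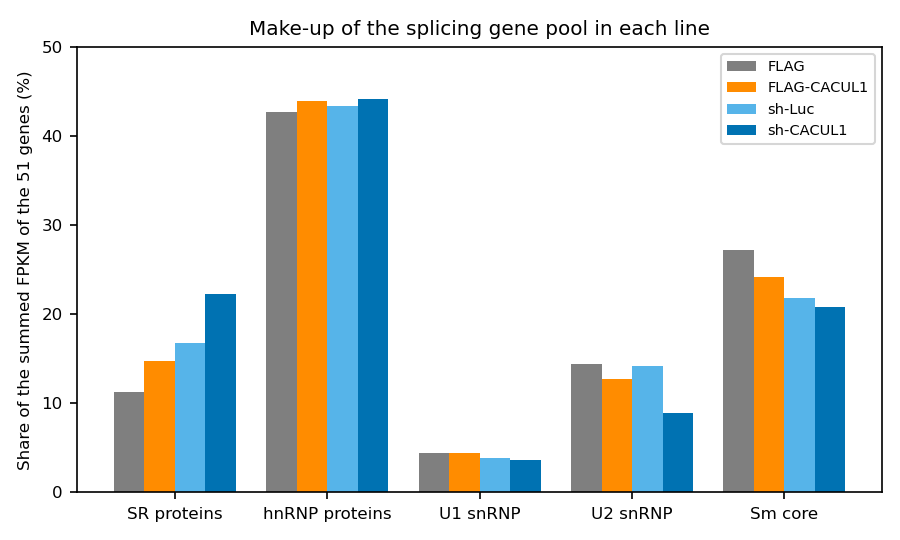
Share of each class in the summed FPKM of the 51 genes, in percent, with 1 bar per line. SR genes take from 11.3% in FLAG to 22.3% in sh-CACUL1, U2 snRNP genes drop to 8.91% in sh-CACUL1, and hnRNP genes stay near 43%.

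The 2 controls were set side by side to show how far lines lie apart without a change in CACUL1. They also differed in the state of the cells. Of the 9 adipocyte markers, 8 were 2-fold or more higher in FLAG than in sh-Luc, and of the 6 markers of dividing cells 3 were lower. The part of this in the distance was not tested. FLAG was 2-fold or more below sh-Luc for 13 of the 51 genes (25.5%) and above it for 0, where 12.4% of all genes were lower and 8.58% higher. For genes at 1 FPKM or more in every sample these shares were 14.0% and 8.1%. Median-of-ratios scaling moved the shares of all genes to 7.16% lower and 12.0% higher and left 9 of the 13 members past the cut-off. The members' median was -0.63, and that of all genes -0.18. The 13 included 6 of the 10 SR genes (Srsf1, Srsf2, Srsf3, Srsf5, Srsf6 and Srsf11) with Hnrnpab, Hnrnph1, Hnrnpm, Sf3a2, Sf3b3, Sf3b4 and Snrpf. Hnrnpab had the largest difference, 3.67-fold, and Srsf3 followed with 3.31-fold. By count and by median relative to all genes, this distance between controls was larger than that of either CACUL1 line from its control. Each control also served in a comparison above, so the comparisons share samples.

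The 2 comparisons with CACUL1 share no sample. The 7 genes higher in FLAG-CACUL1 and the 10 genes lower in sh-CACUL1 had no gene in common, and among all genes 3.02% were past the cut-off in both of these directions. Relative to the median of all genes, 30 of the 51 genes (58.8%) had opposite signs in the 2 comparisons, about the share of all genes, 58.3%. In 25 of these (49.0% of members, against 29.1% of all genes and 34.0% of those at 1 FPKM or more in every sample) the gene was higher in FLAG-CACUL1 and lower in sh-CACUL1. A further 18 were higher in both and 3 lower in both. These counts depend on the reference, since genes at 1 FPKM or more in every sample had medians of 0.13 and -0.43, against 0.09 and -0.30 for all genes. In sh-CACUL1 Hnrnpc, Hnrnph1 and Snrpc, at -0.39, -0.31 and -0.35, lay between these medians. In FLAG-CACUL1 Snrpd3, Hnrnpll and Snrpb2, each at 0.11, did so. The direction in FLAG-CACUL1 also rested on the FLAG sample. The genes with the largest opposite changes were Sf3b4, Hnrnpa0, Snrpf, Sf3a2 and Sf3b6, with relative changes of 0.85, 0.76, 0.69, 0.53 and 0.57 in FLAG-CACUL1 and -1.53, -0.88, -0.73, -1.48 and -0.41 in sh-CACUL1. By contrast Srsf6 was 1.24 above the median gene in FLAG-CACUL1 and also 0.68 above it in sh-CACUL1.

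Pairs of related genes were compared as ratios within a sample. Snrpb and its paralog Snrpn, an imprinted gene whose product takes the place of the B protein mainly in brain, stood at a ratio of 3.94, 11.8, 10.0 and 7.82, with FLAG lowest. Snrpn itself stayed between 8.77 and 13.7 FPKM. Srsf4 and Srsf6, SR proteins of like build, stood at 0.263, 0.072, 0.0678 and 0.0496, with FLAG apart from the other lines. The ratio of Hnrnpa1 to Hnrnpa2b1, which both bind UAG-type elements, was 0.702 in FLAG and 0.304 in FLAG-CACUL1, and 0.618 and 0.347 in the 2 hairpin lines. Here the 2 controls were alike and both manipulated lines were lower, by 1.21 and 0.83 on the log2 scale, and the controls differed by 0.18. Hnrnpa1 was at 68.4, 49.4, 111.4 and 78.9 FPKM and Hnrnpa2b1 at 97.3, 162.5, 180.2 and 227.3 FPKM. Of the 31-base words of Hnrnpa1, 48.3% occur elsewhere, mostly in processed pseudogenes, and both rows include a noncoding transcript of the gene. The ratio of Hnrnph1 to Hnrnph2 was 1.46, 1.74, 3.5 and 2.43, and that of Srsf3 to Srsf7 was 1.12, 1.93, 2.11 and 1.53. Snrpa to Snrpb2 lay between 1.11 and 1.72, Hnrnpl to Hnrnpll between 2.97 and 5.27, and Hnrnpd to Hnrnpdl between 0.281 and 0.5.

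The most even members relative to the sample medians were Snrpc, Snrpe, Hnrnpk, Hnrnpc and Snrpa1. Snrpc, which helps U1 hold the start of the intron, was at 66.4, 82.6, 87.1 and 68.0 FPKM. Snrpe was at 86.8, 112.3, 108.1 and 89.2 FPKM. Hnrnpk, a poly(C)-binding protein, was at 121.7, 157.7, 170.2 and 119.3 FPKM. These genes were chosen for following the median level of their samples, so their levels were low in FLAG and sh-CACUL1 and high in the other lines.

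The remaining members complete the classes, and none of them passed the cut-off in either comparison with CACUL1. Hnrnpu, a scaffold of nuclear RNA and chromatin, was at 87.6, 118.8, 104.1 and 85.6 FPKM, and its relative Hnrnpul2 at 27.2, 32.2, 30.7 and 19.7 FPKM. Hnrnpc, which binds uridine tracts of pre-mRNA, was at 61.4, 74.6, 69.1 and 52.4 FPKM. In these 3 genes FLAG-CACUL1 was the highest sample and sh-CACUL1 the lowest. Hnrnpa3 was at 51.2, 68.2, 45.8 and 53.7 FPKM and was the only member with its lowest level in sh-Luc. Hnrnpf, which shares 50.2% of its 31-base words with other genes, was at 99.8, 101.8, 160.4 and 123.7 FPKM. Hnrnpr, a relative of Syncrip, was at 4.48, 6.73, 6.73 and 6.18 FPKM. Sf3b3, the gene of a large SF3B subunit, was at 20.8, 30.6, 51.6 and 34.7 FPKM, so that its lowest level was in FLAG, unlike the 5 SF3 genes past the cut-off in sh-CACUL1. Of the Sm genes, Snrpd2 was at 128.9, 167.3, 122.3 and 101.4 FPKM and Snrpd1 at 22.5, 41.1, 36.7 and 33.7 FPKM. Both were highest in FLAG-CACUL1, as was Snrpb.

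The wider machinery was read from 81 other splicing genes, of which 80 were measured. In FLAG-CACUL1, 6 of them (7.5%) were 2-fold or more higher and 0 lower, with a median change of 0.18, a share at the background of 7.51%. They included U2af2, Lsm7, Dhx15 and Crnkl1. U2af2, which binds the polypyrimidine tract and brings in U2, was at 29.4 FPKM in FLAG, 61.4 FPKM in FLAG-CACUL1, 61.4 FPKM in sh-Luc and 49.2 FPKM in sh-CACUL1. In sh-CACUL1, 14 (17.5%) were lower and 0 higher, with a median of -0.40, which is close to the 16.4% of all genes. They included the U5 proteins Prpf8, Snrnp200 and Eftud2, which form the core of the catalytic spliceosome. Snrnp200 was at 25.7, 25.3, 27.4 and 9.29 FPKM, Prpf8 at 26.9, 27.0, 49.9 and 20.9 FPKM, and Eftud2 at 13.2, 24.9, 33.3 and 11.6 FPKM. All 3 had their lowest level in sh-CACUL1. The others were Prpf3, Prpf19, Lsm7, Dhx38, Aqr, Ptbp1, Mbnl1, Mbnl2, Smn1, Raly and Coil. Ptbp1, a repressor of exons, was at 76.7, 73.0, 87.5 and 39.2 FPKM, and Mbnl2 at 32.7, 28.3, 36.9 and 11.8 FPKM. Smn1, which loads the Sm ring, was at 10.4, 13.6, 21.2 and 6.53 FPKM. The U1 protein gene Snrnp70 was at 81.6 FPKM in sh-Luc and 81.5 FPKM in sh-CACUL1.

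Base composition of the transcripts differed between the lists. The 7 genes higher in FLAG-CACUL1 had a median GC content of 43.6%, the 10 lower in sh-CACUL1 52.1%, the other 34 members 45.6% and all genes 50.4%. Over the 51 members the change in sh-CACUL1 had a Spearman correlation of -0.40 with GC content, against 0.00 over 9491 genes at 1 FPKM or more in all samples. The corresponding values in FLAG-CACUL1 were -0.11 and -0.04. The points of a correlation share the same libraries, and these values are descriptions. With transcript length the correlation in sh-CACUL1 was -0.05 over members and -0.24 over all genes.

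Promoter sequences of RefSeq on GRCm38.p6, windows of 300 bases across the start of the gene, were matched for 45 of the 51 members and 10128 of all genes. None was matched for Sf3b4 or Sf3b5, both past the cut-off in sh-CACUL1. Sequences are shown for Sf3a2, Sf3a3 and Sf3b2, also past it, and for 2 of the 4 SR genes with higher levels in FLAG-CACUL1. Of the others, Srsf1 held 1 of the motifs marked here and Srsf6 held 0. Each is written 5′ to 3′ in the direction of the gene, and capitals mark the ETS core CCGGAAG, the CCAAT box and TATAAA on either strand. Sf3a2 lies at chr10:80798485-80798784 (plus strand), Sf3a3 at chr4:124714611-124714910 (plus strand), Sf3b2 at chr19:5295408-5295707 (minus strand), Srsf3 at chr17:29032410-29032709 (plus strand) and Srsf5 at chr12:80945249-80945548 (plus strand).
Sf3a2: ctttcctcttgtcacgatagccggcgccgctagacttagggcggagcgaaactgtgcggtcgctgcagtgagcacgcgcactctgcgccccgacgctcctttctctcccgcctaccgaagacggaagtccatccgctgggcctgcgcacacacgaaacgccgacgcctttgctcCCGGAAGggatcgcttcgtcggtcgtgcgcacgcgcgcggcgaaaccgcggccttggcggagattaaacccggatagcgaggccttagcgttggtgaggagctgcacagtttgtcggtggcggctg
Sf3a3: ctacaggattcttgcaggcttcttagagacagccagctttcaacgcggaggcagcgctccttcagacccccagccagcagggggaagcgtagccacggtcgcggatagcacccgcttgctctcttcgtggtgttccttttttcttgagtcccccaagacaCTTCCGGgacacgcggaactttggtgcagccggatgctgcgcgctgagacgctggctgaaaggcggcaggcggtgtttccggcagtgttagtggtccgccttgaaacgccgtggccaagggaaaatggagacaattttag
Sf3b2: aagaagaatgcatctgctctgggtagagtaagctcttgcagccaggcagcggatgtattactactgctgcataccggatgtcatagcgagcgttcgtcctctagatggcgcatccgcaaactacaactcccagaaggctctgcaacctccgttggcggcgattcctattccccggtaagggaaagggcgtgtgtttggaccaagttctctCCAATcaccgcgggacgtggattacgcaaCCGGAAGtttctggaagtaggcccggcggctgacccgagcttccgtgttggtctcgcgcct
Srsf3: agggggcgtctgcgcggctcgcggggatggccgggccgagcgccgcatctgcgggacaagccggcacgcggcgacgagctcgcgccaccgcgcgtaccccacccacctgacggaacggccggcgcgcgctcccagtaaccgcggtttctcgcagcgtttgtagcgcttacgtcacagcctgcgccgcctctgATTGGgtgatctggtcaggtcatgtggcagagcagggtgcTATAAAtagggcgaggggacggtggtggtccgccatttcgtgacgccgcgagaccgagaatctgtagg
Srsf5: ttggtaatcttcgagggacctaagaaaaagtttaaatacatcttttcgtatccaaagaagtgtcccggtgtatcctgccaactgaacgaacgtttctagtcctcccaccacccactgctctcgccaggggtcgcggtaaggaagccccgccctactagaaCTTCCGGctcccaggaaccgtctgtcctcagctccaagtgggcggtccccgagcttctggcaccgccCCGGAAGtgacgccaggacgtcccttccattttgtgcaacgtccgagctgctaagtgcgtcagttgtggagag

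CCGGAAG was present in 6 of the 7 matched SF3A and SF3B promoters (85.7%). It was in 4 of 10 SR promoters, in 2 of 18 hnRNP promoters (11.1%) and in 20.1% of all promoters. Sf3a1, Sf3a2, Sf3a3, Sf3b2, Sf3b3 and Sf3b6 held it. All 6 were lower in sh-CACUL1, with changes between -0.56 for Sf3b3 and -1.78 for Sf3a2, as were all 11 U2 genes and 68.7% of all genes. Against FLAG, Sf3b6 was 0.13 higher in sh-CACUL1, and Sf3b3 was at 34.7 FPKM against 20.8 FPKM in FLAG. Sf3a1, Sf3a2, Sf3a3 and Sf3b2 were lower than in FLAG as well. A link between the letters and the changes was not tested. The matched SF3 promoter without the letters was that of Sf3b1, a gene that was also lower, at -0.23. Sf3b4 and Sf3b5, at -1.84 and -1.16, had no matched promoter. CCGGAAG was in 3 of the 8 matched promoters of genes lower in sh-CACUL1 (37.5%), against 16 of 45 (35.6%) for all members. Other members with the letters were Hnrnpd, Snrpb2, Hnrnpf, Snrpc and Snrpe, with changes of -0.72, -0.71, -0.37, -0.35 and -0.28. So were Srsf4, Srsf11, Snrpg, Srsf5 and Srsf7, with -0.05, 0.06, 0.06, 0.12 and 0.25. CCAAT was found in 13 of 18 hnRNP promoters (72.2%), in 4 of 10 SR promoters and in 43.5% of all promoters. TATAAA was found in 3 of the 7 promoters of genes higher in FLAG-CACUL1 (Hnrnpab, Hnrnpm and Srsf3), in 0 of the 8 matched promoters of genes lower in sh-CACUL1 and in 8.83% of all promoters. The GC box GGGCGG was found in 71.1% of the members' promoters and in 67.5% of all. These matches describe the letters in the windows and not binding.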

How the data were processed

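Expression was measured by RNA-seq in 4 stable lines of 3T3-L1 cells after 8 days of differentiation, with 1 sample per group and groups taken from the labels. The authors deposited FPKM values per RefSeq row, 13110 rows per sample, prepared by a company. Per the labels the build was mm10. The aligner, the counting, the strand setting and the normalization between samples are not given in the sources used here. No read counts were used, and depth was estimated from the spacing of low FPKM values in rows of at least 3000 bases, so depth and counting errors are estimates.

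Rows were joined to symbols through GENCODE M21. No symbol was found for 196 rows, 8 had more than 1, and 50 rows of 25 symbols were summed. A row that the RefSeq table ties to Hnrnpa1l2-ps2 but GENCODE to no symbol was not counted (at most 1.62 FPKM). Changes are log2 ratios of FPKM + 1, which understates changes of low genes, with a 2-fold cut-off taken from the study. No test was made, and counts are read against all genes. Membership follows from the symbol, but the gene families and the lists were chosen with earlier results of these data known. Named genes were those past the cut-off in either CACUL1 comparison, the most abundant per class, the largest differences between controls, the largest opposite and the most even changes, and 8 related pairs. Srsf2, Srsf7, Srsf9, Srsf10, Srsf11, Sf3a1, Sf3b1, Sf3b3, Sf3b6 and other members are named to complete the classes, and genes of the other lists are named where they passed the cut-off or set a level. Shared words were 31-base words of GENCODE transcripts. Alternatives were a pseudocount of 0.1 or none, filters at 1 FPKM, 3 scalings, the highest row per symbol, the other control and a 3-fold cut-off. The scripts were tested on simulated data. Python 3.11.15, numpy 2.4.6, pandas 2.3.3, scipy 1.17.1 and matplotlib 3.10.9 were used.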

Additional observations from a re-analysis of the deposited data

How the results depend on the processing

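No paired analysis was possible because each group has 1 sample. For the same reason no replicate could be left out. The number of members past the cut-off in FLAG-CACUL1, 7 as reported, was 4 with median-of-ratios scaling and 0 at 3-fold. Of all genes 2.16% were higher and 2.9% lower at 3-fold. With the other control none of the 7 was past the 2-fold cut-off and 1 other gene, Hnrnpa1, was lower, by -1.16 on the log2 scale. With that control 5.04% of all genes were higher and 4.87% lower. With a pseudocount of 0.1 or none Snrpb was also past the 2-fold cut-off, which made 8. The shares of all genes higher were then 13.6% and 16.8%. In sh-CACUL1 the number, 10 as reported, was 4 with quantile normalization, 2 with median-of-ratios scaling and 2 at 3-fold. At 3-fold 1.93% of all genes were higher and 5.23% lower. Between controls the number of members was 3 at 3-fold, against 13, where 4.1% of all genes were higher and 3.49% lower at 3-fold. With the other control Hnrnpab changed by -0.36, Hnrnph1 by -0.33, Hnrnpm by -0.23, Srsf1 by -0.16, Srsf3 by -0.49, Srsf5 by -0.48 and Srsf6 by -0.21 in FLAG-CACUL1, and Snrpf by 0.29 in sh-CACUL1.

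The members' median minus that of all genes was 0.30 in FLAG-CACUL1 as reported. It was 0.26 with a pseudocount of 0.1, 0.25 with none, 0.26 with either filter at 1 FPKM, 0.33 after quantile normalization, 0.25 after median-of-ratios scaling, 0.29 after rescaling to the same sum and -0.09 with the other control. In sh-CACUL1, -0.07 as reported, these were 0.05, 0.08, 0.06 and 0.04 for the filters in all and in any sample, -0.12, 0.09, 0.02 and 0.10. Between controls, -0.45 as reported, they were -0.36, -0.33, -0.37 and -0.38, -0.47, -0.34 and -0.44 for the rescaled sum. Among all genes in sh-CACUL1, 9.0% were higher and 8.28% lower after quantile normalization, and 7.94% and 15.7% after rescaling to the same sum. Between controls these shares were 10.3% and 8.74%, and 8.25% and 20.8%. The causes of these shifts were not tested.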
